A study of Arabidopsis thaliana with 134 samples.

Results

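CHE (CCA1 HIKING EXPEDITION, also TCP21, locus AT5G08330) is 1 gene of the 28775 in the deposited expression table, and 1 of the 18111 with a mean level of at least 1 TPM. TPM is a transcript abundance scaled by transcript length and library size. The gene was taken by its locus row, and it was chosen by its measured loss in extended light and by the agreement between the light and dark libraries of a line. Both of these values are therefore given as descriptions with no test, and nothing is supported with them.

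RNA was taken from whole Arabidopsis thaliana seedlings at 12 days, grown on MS medium with 3% sucrose at 22 °C under 8 h of light and 16 h of dark. All groups were sampled at zeitgeber time 10 h. In extended light, the lamps of 1 cabinet were left on for 2 h after zeitgeber time 8 h; in the dark, the other cabinet was dark over the same 2 h, so the light and the cabinet cannot be told apart. Each condition held 65 inbred lines, read here as recombinants of Tnz-1 and Ws-2, with 1 library per line, plus 1 library of each parent. A library pooled seedlings from clusters of about 50 seeds, and the p-values below measure the spread between lines. The labels name no transgene or mutant.

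CHE is a class I TCP transcription factor of the circadian clock. It binds a TCP site in the promoter of CCA1, the morning clock gene, and represses it; the evening protein TOC1 binds CHE, and CCA1 and its relative LHY in turn act on the CHE promoter. In leaves CHE is also known for promoting ICS1, the gene for the enzyme that starts salicylic acid synthesis.

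In the TAIR10.1 reference annotation CHE lies on the plus strand at chr5:2680401-2681993 as 1 mRNA of 1 exon, with a coding sequence at 2680828 to 2681547 that encodes 239 residues. No annotated gene overlaps it; the next gene, ATSTE14B, starts 2 bases after its end, and the nearest gene upstream ends 1581 bases before its start. The windows below show a CCA1-binding site upstream of CHE and a class I TCP site upstream of CCA1, the kinds of site through which each is known to act on the other, and a G-box of CCA1, which is neither. They come from RefSeq (TAIR10.1, the Col-0 reference, plus strand) and not from Tnz-1 or Ws-2, whose sequences were not analysed here, and capitals mark the motif. The first window lies upstream of CHE at chr5:2679762-2679821 and holds the CCA1-binding site AAAAATCT, 613 to 606 bases before the start. The next lies upstream of CCA1 at chr2:19245372-19245429 and holds the G-box CACGTG, 193 to 188 bases before its start. The last lies upstream of CCA1 at chr2:19245415-19245474 and holds the class I TCP site GTGGGNCC on the minus strand, 150 to 143 bases before its start.
CHE, CCA1-binding site: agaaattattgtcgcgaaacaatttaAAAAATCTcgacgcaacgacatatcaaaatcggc
CCA1, G-box: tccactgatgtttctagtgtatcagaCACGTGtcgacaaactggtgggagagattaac
CCA1, class I TCP site: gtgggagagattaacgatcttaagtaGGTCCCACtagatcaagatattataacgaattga
In all, 4 motifs were searched on both strands, these 3 and the evening element AAATATCT. Within 500 bases upstream CHE held none of them, and within 1000 bases it held the single CCA1-binding site shown. Of 27443 promoters, 21.1% held a CCA1-binding site within 1000 bases, 15.3% an evening element, 14.8% a G-box and 2.46% a class I TCP site. The match in CHE is thus a common one, and the TCP site in CCA1 is a rarer one; a match is a run of letters and not evidence of binding.

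In extended light CHE was listed at 5.22 to 34.16 TPM with a median of 19.24 and a mean of 18.2 ± 7.15 TPM (SD, n = 65 lines). In the dark it was listed at 8.80 to 105.02 TPM with a median of 57.52 and a mean of 51.6 ± 22.6 TPM (SD, n = 65 lines). Every line had less CHE in its light library than in its dark library, but the conditions overlapped across lines: 19 of the 65 dark libraries lay below the highest light library. The light level was 17.7% to 72.8% of the dark level of the same line, with a median of 34.9%. On the log2(TPM + 1) scale, which is used for all fold changes below and understates those of low genes, the change was −1.40 ± 0.41 (SD, n = 65 lines). In these bulk samples fewer cells with CHE and less CHE RNA per cell cannot be told apart.

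Among the 18111 genes tested, 288 (1.59%) had a lower mean change than CHE, and the median change was 0.05. Light and dark levels of CHE correlated over lines with r = 0.853 (Spearman rho = 0.698), and 2992 genes (16.5%) had a higher r. CHE was therefore near the edge of the table for its fall and less extreme for its agreement.

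The parents, with 1 library each and no test, differed in the same way in both conditions. Tnz-1 had 8.58 TPM in extended light and 21.37 TPM in the dark. Ws-2 had 17.75 TPM in extended light and 62.28 TPM in the dark. The log2 change in light was −1.22 in Tnz-1 and −1.75 in Ws-2, so that 40.2% of the dark level was left in Tnz-1 and 28.5% in Ws-2.

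The lines fell around the levels of the parents. Which parent a line resembled at a place in the genome was read from 214 tag genes, which are genes at or under 1 TPM in both libraries of one parent, at 8 TPM or more in both of the other, and split cleanly over the lines. The nearest tags to CHE are AT5G06860, 546.8 kb upstream, and AT5G09310, 204.9 kb downstream, a gamma-secretase subunit gene. At AT5G09310, 18 lines were Tnz-1-like and 47 were Ws-2-like.

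In extended light CHE averaged 8.98 ± 2.59 TPM in Tnz-1-like lines (5.22 to 14.22, median 8.94) and 21.7 ± 4.78 TPM in Ws-2-like lines (13.64 to 34.16, median 21.43). In the dark CHE averaged 21.3 ± 6.25 TPM in Tnz-1-like lines (8.80 to 32.97, median 19.47) and 63.2 ± 14.1 TPM in Ws-2-like lines (27.50 to 105.02, median 59.84). The Tnz-1-like mean was 41.4% of the Ws-2-like mean in extended light and 33.7% in the dark, and the groups barely overlapped. In extended light 1 Tnz-1-like line lay above the lowest Ws-2-like line, and in the dark 3 did so, all above line 63. The form at this tag accounted for 75.0% of the variance of the CHE log2 level in extended light and for 79.6% in the dark.

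**Figure D1:**
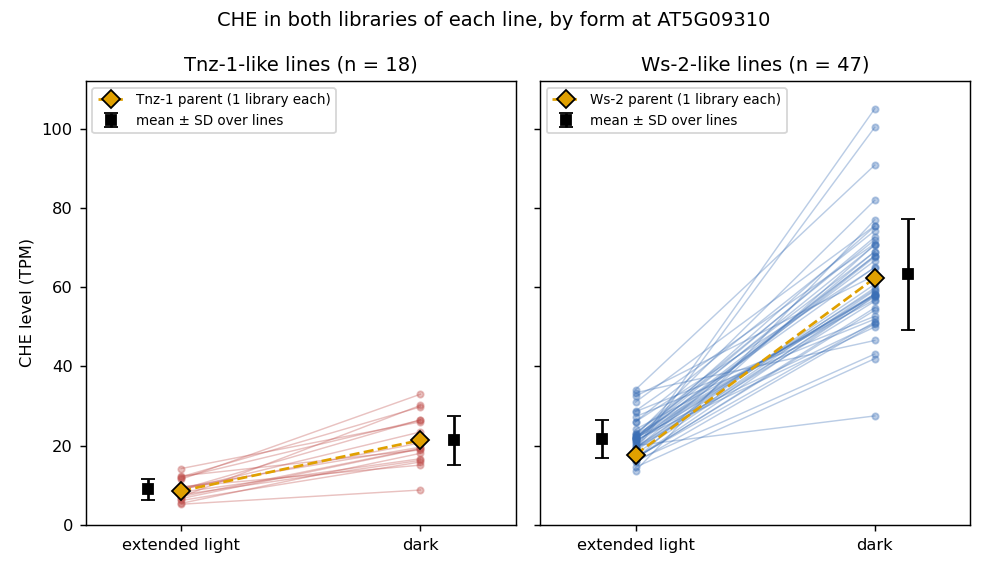
CHE level in TPM in the extended-light and the dark library of each line, joined by a line, for the 18 Tnz-1-like and the 47 Ws-2-like lines at AT5G09310; diamonds are the parents with 1 library each and black squares the mean ± SD over lines. Every line falls in light, and the Tnz-1-like lines sit at 8.80 to 32.97 TPM in the dark against 27.50 to 105.02 TPM in Ws-2-like lines.

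Within forms the agreement between the libraries of a line was lower than over all lines. In the 18 Tnz-1-like lines r between light and dark was 0.615, and 0.443 without the 2 lines farthest from the median. In the 47 Ws-2-like lines it was 0.187, and 0.243 without 2 such lines. The r of 0.853 over all lines thus spans 2 separate levels, and within the larger group a line with more CHE in the dark had only slightly more in light.

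The median log2 difference in CHE between 10 pairs of near-identical lines, which share at least 95% of tag forms, was 0.227 in light and 0.185 in the dark. Between other lines of the same form at AT5G09310 it was 0.288 in light and 0.286 in the dark. Between lines of different forms it was 1.2 in light and 1.55 in the dark, several times either within-form spread. The pairs were not all alike: line 63 had 27.50 TPM in the dark where line 56 had 51.20 TPM, and line 58 had 46.54 TPM in the dark where line 48 had 81.92 TPM.

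CHE level, taken as the mean of the log2 levels of both libraries of a line, was tested against each tag with a two-sided permutation test of 100000 resamples and Benjamini-Hochberg adjustment over tags. It differed at 68 of 214 tags (31.8%), and lines with the Tnz-1-like form were lower at all 68. The largest difference was at AT5G09310, with Tnz-1-like minus Ws-2-like −1.38 ± 0.09 (SE) and adjusted p = 0.000107, from the smallest p that the permutations can give. Of the 68 tags, 22 lay on chromosome 5, 30 on chromosome 2, 7 on chromosome 3, 6 on chromosome 4 and 3 on chromosome 1. Since high agreement between libraries goes with lines that differ, that lines differ was part of the choice of CHE; the place of the tags was not.

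Tags on different chromosomes share lines, so forms elsewhere can move with the form near CHE. PRP3, a proline-rich cell wall protein gene on chromosome 3, gave −0.87, but 84.6% of lines had the same form there as at AT5G09310. The scan was repeated within AT5G09310 forms, which was added after the values were seen. CHE level then differed at 39 of 213 tags (18.3%), 33 of them on chromosome 2, 5 on chromosome 5 and 1, AT3G27990, on chromosome 3. The best tag of chromosome 2 over all lines, AT2G24020, gave −0.74 over all lines and −0.30 within forms, with adjusted p = 0.00194 within forms in the permutation test.

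**Figure D2:**
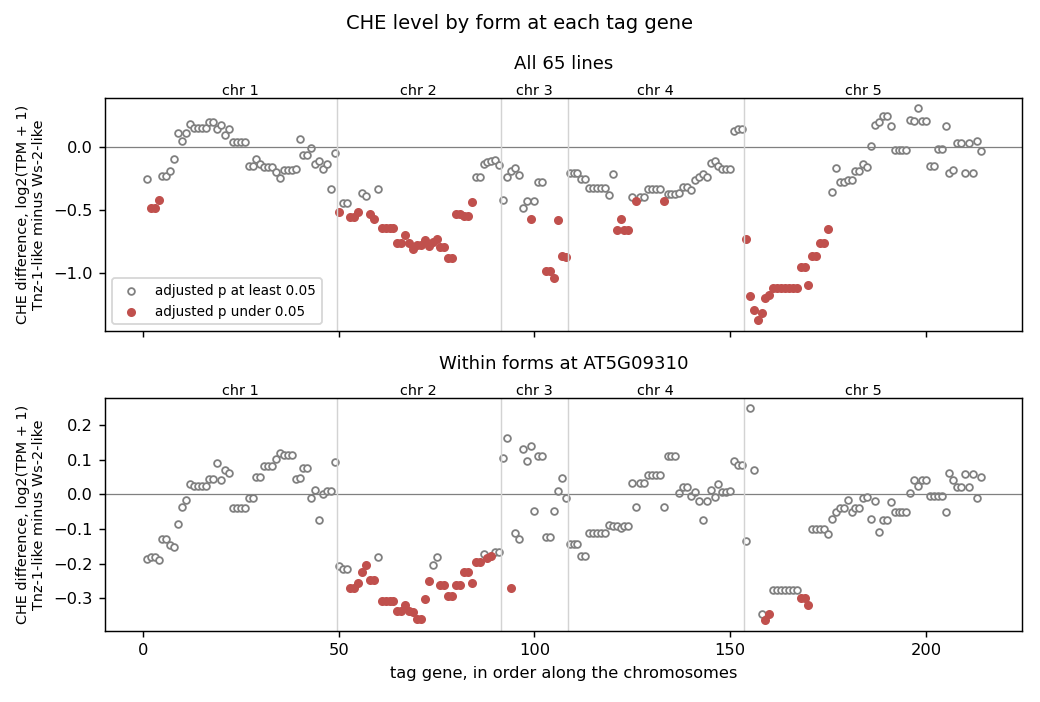
Difference in CHE level (log2(TPM + 1), Tnz-1-like minus Ws-2-like lines) at each of the 214 tag genes in chromosome order, over all 65 lines (top) and within forms at AT5G09310 (bottom); filled points passed an adjusted p of 0.05 in the permutation test. The lowest point over all lines is AT5G09310 at −1.38, and within forms 33 of the 39 filled points lie on chromosome 2.

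In extended light CHE averaged 8.07 ± 2.18 TPM in 13 lines Tnz-1-like at both tags and 11.3 ± 2.15 TPM in 5 lines Tnz-1-like at AT5G09310 alone (SD). It averaged 18.8 ± 3.51 TPM in 14 lines Tnz-1-like at AT2G24020 alone and 22.9 ± 4.76 TPM in 33 lines Ws-2-like at both. In the dark it averaged 19.7 ± 6.32 TPM in lines Tnz-1-like at both tags, 25.7 ± 3.71 TPM in those Tnz-1-like at AT5G09310 alone, 56.9 ± 16.3 TPM in those Tnz-1-like at AT2G24020 alone and 65.9 ± 12.3 TPM in those Ws-2-like at both (SD). The order was thus the same in both conditions, with steps at AT2G24020 smaller than those at AT5G09310. The median share of Tnz-1-like tags on chromosomes 1, 3 and 4 ran in the same order, from 37.8% in lines Tnz-1-like at both tags through 27.9% and 21.6% to 18% in lines Ws-2-like at both, and its part in the result was not tested.

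Lines with a crossover near CHE were read 1 by 1. Line 46, Tnz-1-like at AT5G06860 and Ws-2-like at AT5G09310, had 21.66 TPM in light and 66.68 TPM in the dark, above every Tnz-1-like line in both. Line 34, Tnz-1-like at AT5G09310 and Ws-2-like from the next tag, AT5G11280, onwards, had 11.51 TPM in light, below every Ws-2-like line, and 32.97 TPM in the dark, the highest Tnz-1-like value and above the lowest Ws-2-like one. Line 45, Ws-2-like at AT5G09310 and Tnz-1-like from AT5G11280 onwards, had 13.64 TPM in light, the lowest Ws-2-like value, and 76.98 TPM in the dark. In the dark lines 46 and 45 thus lay above every Tnz-1-like line, and line 34 lay where the forms overlap. In light line 46 lay above every Tnz-1-like line and line 34 below every Ws-2-like line. Line 45 lay in the overlap in light, below the highest Tnz-1-like value of 14.22 TPM.

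The gene YLS8, a splicing factor gene whose nearest end lies 13.14 kb from CHE, gave a closer reading of the form. It was listed at 0.2 TPM in light and 1.2 TPM in the dark in Tnz-1, and at 193.19 TPM in light and 196.40 TPM in the dark in Ws-2. Line 46 had 189.93 TPM of YLS8 in light and 210.62 TPM in the dark, and line 34 had 0.32 TPM in light and 1.04 TPM in the dark. YLS8 thus placed both crossover lines on the same side as AT5G09310 did, while line 68 stood between the forms with 76.85 TPM of YLS8 in light and 78.23 TPM in the dark, beside 14.55 TPM of CHE in light and 41.95 TPM in the dark. Whether the difference between the forms lies in the amount of RNA or in how reads of each allele were counted was not tested.

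The direct neighbours of CHE did not all differ by form. ATSTE14B, a methyltransferase gene 2 bases downstream, averaged 10.8 TPM in Tnz-1-like and 10.7 TPM in Ws-2-like lines in light, and 9.75 TPM in Tnz-1-like and 10.3 TPM in Ws-2-like lines in the dark. AT5G08320, the nearest gene upstream, averaged 13.5 TPM in Tnz-1-like and 12.8 TPM in Ws-2-like lines in light, and 14.7 TPM in Tnz-1-like and 16.1 TPM in Ws-2-like lines in the dark. HEMC, of chlorophyll and haem synthesis, averaged 139.9 TPM in Tnz-1-like and 293.8 TPM in Ws-2-like lines in light, lower in the Tnz-1-like lines as CHE was. AGAL1, an alpha-galactosidase gene, averaged 83.9 TPM in Tnz-1-like and 48.4 TPM in Ws-2-like lines in light, the reverse order. CHE was therefore low in Tnz-1-like lines between adjoining genes whose means lay close together; these differences between forms were not tested gene by gene.

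The size of the fall was next compared between forms. It averaged −1.15 ± 0.36 in 18 Tnz-1-like lines and −1.50 ± 0.39 in 47 Ws-2-like lines (SD), a difference of 0.35 ± 0.10 (SE). Its unadjusted permutation p was 0.00183 and its adjusted p was 0.0681, so it did not pass. None of the 214 tags passed for the change (0.0%); 28 had an unadjusted p under 0.05 in the permutation test. With ranks, within ranges of line numbers, without near-identical lines or with tags at a gap of 2.5 the difference at AT5G09310 did pass, at adjusted p = 0.0171 to 0.046 in the permutation test; over all alternatives the adjusted p ran up to 0.16, with a pseudocount of 0.1. The light level was 43.7% ± 11.5 of the dark level in Tnz-1-like lines and 35.8% ± 10.8 in Ws-2-like lines (SD).

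The fall of CHE showed no relation to how strongly a line responded as a whole. Response size was the slope of a line's changes on the mean changes of the other lines over 992 genes that changed in light, CHE left out, and ran from 0.603 to 1.24. Its correlation with the change of CHE was r = 0.02 (p = 0.873) and rho = 0.03 (p = 0.79) over 65 lines, and r = −0.03 without the 2 farthest lines, in two-sided permutation tests. Within forms the r was 0.151 with p = 0.233.

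Genes that follow CHE over lines were sought with limma in each condition, and were called at an adjusted p under 0.05 (Benjamini-Hochberg) with an absolute r of at least 0.5. In light 1090 of 18106 genes followed CHE (6.02%), 425 with positive and 665 with negative r; in the dark 1003 of 18107 did (5.54%), 365 positive and 638 negative. With median-of-ratios scaling the split turned to 648 positive and 434 negative in light and to 596 positive and 438 negative in the dark. The sign of the general trend therefore rested on the scaling, and it is not read here. The calls of light and dark shared 614 genes, 56.3% of those in light and 61.2% of those in the dark, all with the same sign.

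Followers were densest around CHE itself. Within 0.5 Mb of CHE on chromosome 5, 42.3% of the 213 tested genes followed it in light and 42.7% in the dark. Over 5 Mb away on the same chromosome 2.36% did in light and 2.21% in the dark. Outside chromosome 5 these shares were 3.88% in light and 3.13% in the dark, and they were uneven. In light they were 2.56% on chromosome 1, 7.58% on chromosome 2, 4.27% on chromosome 3 and 1.8% on chromosome 4. In the dark they were, in the same order, 2.52%, 3.79%, 4.16% and 2.17%. Followers within 0.5 Mb had either sign, 58 positive and 32 negative in light.

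The highest positive r were those of genes on the same stretch of chromosome 5. AAP2, an amino acid permease gene, had r = 0.89 in light, with 15.4 ± 4.67 TPM in Tnz-1-like and 164.8 ± 43.7 TPM in Ws-2-like lines. In the dark YLS8 and AT5G09310 had r = 0.90, and AT5G08650, a small GTP-binding protein gene, and AT5G08630, a DDT-domain protein gene, had r = 0.89 and 0.87. bHLH143 (AT5G09460), a transcription factor gene, had r = 0.87 in both conditions. Its values were identical in every library to those of 3 further locus rows, AT5G09461, AT5G09462 and AT5G09463, so these 4 are 1 measurement.

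The lowest r were also of genes near CHE. ML4, a MEI2-like RNA-binding protein gene, had r = −0.85 in light and −0.88 in the dark, with 25 ± 3.44 TPM in Tnz-1-like and 13.1 ± 2.57 TPM in Ws-2-like lines in light. AT5G11560 had r = −0.86 in light and −0.83 in the dark, and AT5G11580, an RCC1-family gene, −0.84 in light and −0.83 in the dark. AT5G11000, a DUF868 gene, had −0.82 in both. AT5G10190, a transporter-family gene, had −0.85 in light. In the dark TOC64-V, of protein import into organelles, and AT5G11850, a kinase gene, had r = −0.84. The farthest of these genes starts 1136 kb from CHE. Because the lines lie in separate groups of CHE level, an r over all lines is not one within the groups.

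**Figure D3:**
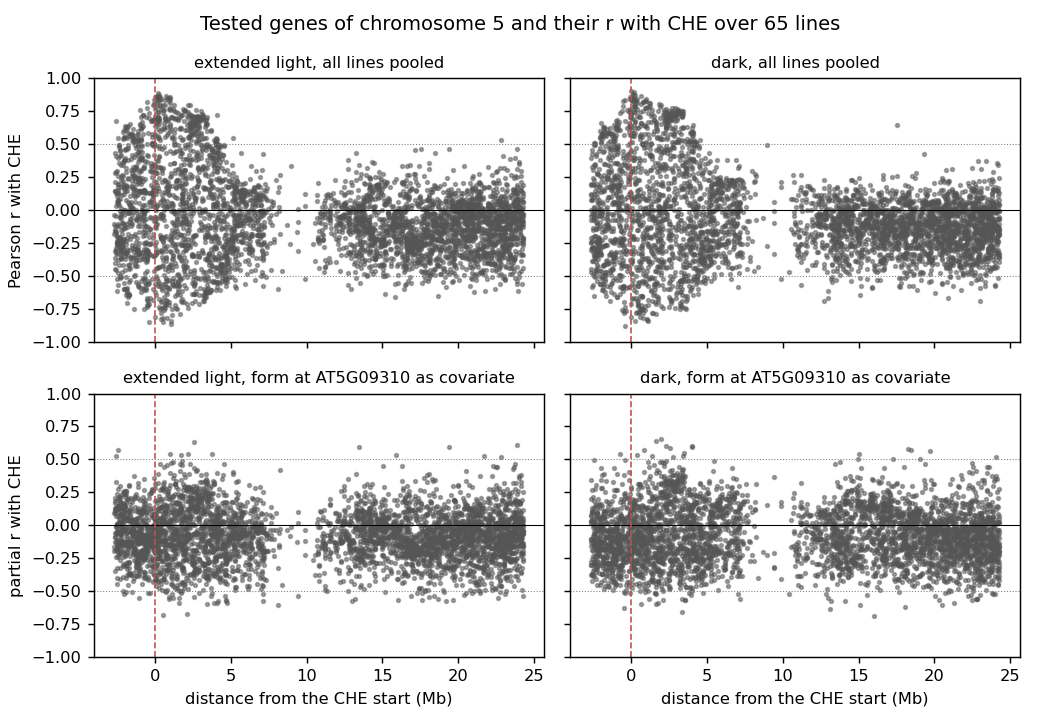
Correlation r with CHE over 65 lines for each tested gene of chromosome 5, against its distance in Mb from the CHE start (dashed vertical line), in extended light (left) and dark (right), over all lines (top) and with the form at AT5G09310 as a covariate (bottom); dotted lines mark an absolute r of 0.5. The wide band of high and low r around CHE in the top panels is absent from the bottom panels, where 2 genes in light and 4 in the dark followed CHE within 0.5 Mb.

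The fit was therefore repeated with the form at AT5G09310 as a covariate, added after the values were seen. In light 344 genes followed CHE (1.9%), 82 with positive and 262 with negative r; in the dark 384 did (2.12%), 127 positive and 257 negative. Median-of-ratios scaling gave 203 positive and 195 negative in light, and 323 positive and 125 negative in the dark. These calls and those without the form had 148 genes in common in light and 62 in the dark. Light and dark shared 54 genes, 15.7% of the calls in light and 14.1% of those in the dark, all with the same sign.

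CHE and the other gene come from the same library in these fits. CHE was then taken from the other library of the line, which is also of the other condition, with the form in the fit. In that fit 36 genes followed CHE in light and 296 in the dark. The first principal component over all other genes held 11.3% of the variance in light and 12.0% in the dark, and its partial r with CHE given the form was 0.312 in light and 0.325 in the dark in size. Its part in the result was not tested.

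Within forms the genes most like CHE lay on several chromosomes, and calls were densest on chromosome 2. There 3.58% of tested genes followed CHE in light and 2.79% in the dark, beside 1.9% and 2.12% of all genes. BLH4, IAA8, CVL1, GSTF8 and AGP26, named below, lie on chromosome 2. BLH4 starts at 10107707 and IAA8 at 9636346, and the tag AT2G24020 starts at 10217641. The form at that tag was not in the fit, and its part in the result was not tested. In light the highest partial r were those of BLH4 (BEL1-like homeodomain, 0.68), AT3G52870 (a calmodulin-binding family, 0.66), IAA8 (an auxin response repressor, 0.64) and CVL1 (CVP2-like, 0.64). The lowest in light were those of CAD1 (cinnamyl-alcohol dehydrogenase, −0.70), GSTF8 (glutathione S-transferase, −0.70), AT5G10200 (an ARM-repeat protein, −0.68) and KMS1 (a SNARE-associated protein, −0.68). In the dark the highest were those of GATL6 (galacturonosyltransferase family, 0.72), NPGR1 (0.72), AGP26 (0.70) and AGP12 (0.69), the last 2 being arabinogalactan proteins of the cell surface. The lowest in the dark were those of GLYI4 (glyoxalase I family, −0.71), AT1G09500 (an oxidoreductase family, −0.69), DELTA-OAT (ornithine aminotransferase, −0.69) and GDH1 (glutamate dehydrogenase, −0.66).

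Most of these calls were lost when CHE was taken from the other library of the line. That library is also of the other condition, and CHE in light and dark had r = 0.187 within Ws-2-like lines. The loss therefore cannot tell an error shared within a library from a relation particular to a condition. Of the 8 genes named in light, CAD1 alone was still called (−0.52); AT3G52870 had 0.19, and BLH4 had 0.37 and GSTF8 −0.39. Of the 8 named in the dark none was still called, and 4 had an adjusted p under 0.05 in limma. AT1G09500 kept the largest partial r in size of these 8, −0.43, while GLYI4 had −0.08, AGP12 0.14, AGP26 0.23 and DELTA-OAT −0.28.

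Some genes were called in both conditions with the form in the fit. AT4G16980, of an arabinogalactan protein family, had partial r = 0.63 in light and 0.66 in the dark, and was listed at a mean of 181.9 TPM in light and 408.0 TPM in the dark. RKL1, a receptor-like kinase gene, AT5G16030 and iqd21 were the next highest, at 0.58 to 0.66 in either condition. CAD1 had −0.70 in light and −0.63 in the dark, and AT1G09500, AT5G13370, of the auxin-related GH3 family, and NTMC2T5.1 were the next lowest, at −0.69 to −0.58. With CHE from the other library, 5 of these 8 genes were still called in light and 1, AT5G16030, in the dark, and none in both. AT4G16980 then had 0.50 in light and 0.47 in the dark, CAD1 had −0.52 in light and −0.43 in the dark, and RKL1 had 0.38 in light and 0.21 in the dark. In the dark iqd21 had 0.11 and AT5G13370 had −0.04, beside 0.50 and −0.64 in light. With the form and median-of-ratios scaling, AT5G13370 had −0.45 in light and −0.41 in the dark, under the threshold of 0.5. The other genes named here stayed above 0.5 in size in both conditions with that scaling.

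Whether a gene follows CHE differently in light and dark was tested by the interaction term in limma. The slope differed at an adjusted p under 0.05 for 13 of 18110 genes (0.0718%), 4 with a higher and 9 with a lower slope in light; 936 had an unadjusted p under 0.05. AT5G11420, a DUF642 protein gene, had r = 0.45 in light and −0.49 in the dark, with adjusted p = 0.00047 for the difference. GSTF8 had −0.52 in light and 0.16 in the dark (limma adjusted p = 0.0193 for the difference). These r are over all lines, and AT5G11420 starts 964 kb from CHE. With the form as a covariate, the partial r of AT5G11420 was 0.54 in light and −0.22 in the dark. That of GSTF8 was −0.70 in light and −0.07 in the dark, and neither dark value passed the adjusted p. The interaction test called 273 genes when the line entered as a replicate block, and 58 with the form in the fit.

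Genes of the clock were compared as a list, of which 25 of 27 were tested; LHY and RVE8 lay below the level filter. In the background 993 of 18111 genes (5.48%) changed in light at an adjusted p under 0.05 with a log2 change of at least 1 in size, 481 higher (2.66%) and 512 lower (2.83%) in limma. In the clock list 5 rose and 2 fell, with a median change of 0.04 beside 0.05 over all genes. GI, which acts with FKF1 in day-length timing, averaged 48.4 ± 15.5 TPM in light and 11.3 ± 3.19 TPM in the dark (log2 change 1.98 ± 0.08, SE). ELF4, of the evening complex, changed by 1.86, CDF1, a flowering repressor, by 1.83, LNK1, a clock coactivator, by 1.30 and FKF1, a blue-light receptor, by 1.24. COR27 and COR28, cold-regulated clock repressors, changed by −1.34 each, the only clock genes called lower in light. At adjusted p alone in limma 10 of the 25 were higher and 10 lower, beside 6532 higher and 4615 lower of all 18110 genes.

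CHE's main target and partner did not change beyond the threshold. CCA1 averaged 1.74 ± 0.68 TPM in light and 1.62 ± 0.895 TPM in the dark, so that its log2 change was 0.10 ± 0.07 (SE; limma gave adjusted p = 0.214). TOC1 averaged 157.1 ± 25.3 TPM in light and 150.3 ± 25.2 TPM in the dark, so that its log2 change was 0.06 ± 0.04 (SE; limma gave adjusted p = 0.161). These fits did not pair the libraries of a line. With the line as a block 13908 genes passed the adjusted p alone, beside 11148 without it. The adjusted p of CCA1 and TOC1 in the block fit is not given here. CHE was thus lower in the light library of every line, beside low CCA1 and high TOC1 in both conditions.

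**Figure D4:**
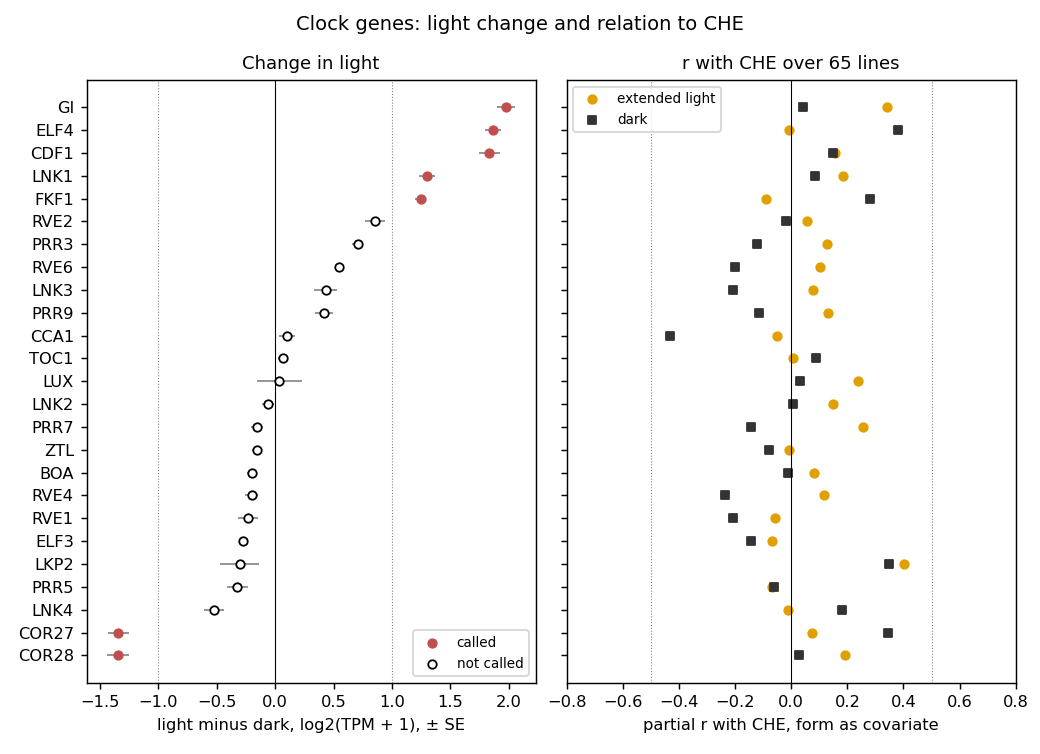
Light minus dark log2 change with its SE for each of the 25 tested clock genes (left, filled where called) and the partial r of each with CHE over 65 lines in extended light and dark, with the form at AT5G09310 as a covariate (right); dotted lines mark the thresholds of 1 and 0.5. GI at 1.98 and COR28 at −1.34 bound the changes, and no partial r reaches 0.5 in size.

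None of the 25 clock genes followed CHE in either condition, with or without the form in the fit. Over all genes 6.02% did in light and 5.54% in the dark without the form, and 1.9% and 2.12% with it. At these shares a list of 25 is too short for a count of 0 to be read. With the form, 3 had an unadjusted p under 0.05 in light and 5 in the dark in limma. Over all 18110 genes 4852 did in light and 5996 in the dark. At adjusted p alone, LKP2, a relative of FKF1, had partial r = 0.40 in light and 0.35 in the dark, GI had 0.34 in light, and ELF4 and COR27 had 0.38 and 0.34 in the dark. CCA1 was the only clock gene with a negative partial r at adjusted p alone, −0.43 in the dark (limma adjusted p = 0.00686), against −0.05 in light (limma adjusted p = 0.855). Over all 18110 genes, 2353 had a negative partial r at adjusted p alone in the dark, so such a value is a common one. The slope of CCA1 on CHE was not called as different between conditions (limma adjusted p = 0.984, and 0.323 with the form). These fits do not show the relation to be one of the dark alone. They leave out that the light and dark libraries of a line are paired. The fit with the line as a replicate block, which called 273 genes, is not given here for CCA1. With CHE from the other library and the form in the fit, CCA1 had −0.33 in the dark, ELF4 had 0.12 and COR27 had 0.07.

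Within the Tnz-1-like lines r between CHE and CCA1 was −0.131 in light and −0.518 in the dark (n = 18). Within the Ws-2-like lines it was −0.009 in light and −0.385 in the dark (n = 47). Without the 2 lines farthest from the median, r in Tnz-1-like lines was −0.404 in light and −0.235 in the dark, so that in these lines neither value nor their order held. In Ws-2-like lines it was then −0.066 in light and −0.377 in the dark. CCA1 levels were low, and the depth behind them is unknown.

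**Figure D5:**
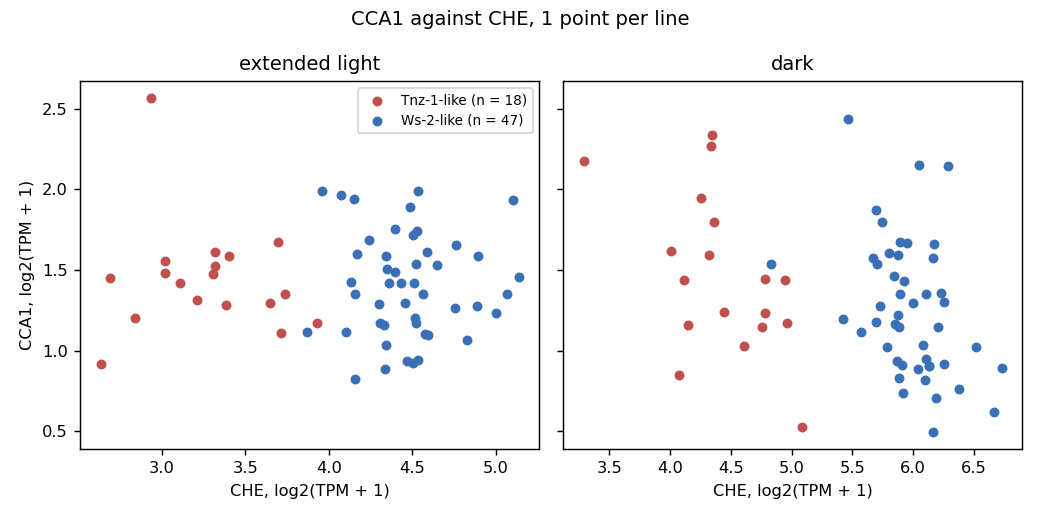
CCA1 level against CHE level, both in log2(TPM + 1), 1 point per line, in extended light (left) and dark (right), with Tnz-1-like and Ws-2-like lines at AT5G09310 in separate colours. In the dark CCA1 tends to be lower where CHE is higher within the Ws-2-like lines (r = −0.385, and −0.009 in light); in the Tnz-1-like lines the values, −0.518 in the dark and −0.131 in light, turn on 2 lines.

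In the TCP family, 16 of 23 other members were tested and 1 was called in light, beside 5.48% of all genes. A list of 16 is too short for this count to be read. TCP14, a class I member that promotes growth, fell to 44.1 ± 6.26 TPM in light, against 101.7 ± 17.3 TPM in the dark (log2 change −1.18 ± 0.04, SE), and was lower in light in 65 of 65 lines. TCP15, a close relative, changed by −0.81 in 65 of 65 lines, which passed the adjusted p and not the size. The median change of the 9 class I members tested was −0.19, that of the 7 class II members 0.21, and that of all genes 0.05.

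No other TCP gene followed CHE without the form, beside 6.02% of all genes in light and 5.54% in the dark. Of the 16, 2 had an unadjusted p under 0.05 in light and 3 in the dark in limma. With the form, 1 of the 16 followed it in the dark and none in light, beside 2.12% of all genes in the dark and 1.9% in light. This was TCP3, with partial r = 0.51 in the dark (adjusted p = 0.00076, limma) and 0.47 in light; with CHE from the other library it had 0.20 in the dark and was not called. TCP3, TCP4 and TCP10 are class II members that restrain leaf cell proliferation. TCP4 had 0.41 in light and 0.43 in the dark, and TCP10 had 0.33 in light and 0.49 in the dark, all below the threshold of 0.5. TCP13, also of class II, had the opposite sign, −0.19 in light and −0.42 in the dark. The median partial r of the 7 class II members tested was −0.06 in light and 0.19 in the dark. For the 9 class I members tested it was 0.02 in light and 0.05 in the dark. Of these 9, 1 had a positive partial r at adjusted p alone in the dark. With the form, 4 of the 16 had an unadjusted p under 0.05 in light and 7 in the dark in limma. Over all 18110 genes 4852 did in light and 5996 in the dark.

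In the salicylic acid list, 11 of 18 genes were tested and none was called in light, beside 5.48% of all genes. At adjusted p alone 3 had higher and 2 lower levels in limma, beside 6532 higher and 4615 lower of all 18110 genes. PBS3, the enzyme after ICS1 in salicylic acid synthesis, followed CHE with r = −0.57 in light and −0.60 in the dark, and WRKY70, a defence regulator gene, with −0.50 in light. ICS1 itself had r = −0.42 in light and −0.44 in the dark, below the threshold. With the form in the fit none of the 11 followed CHE, beside 1.9% of all genes in light and 2.12% in the dark. The partial r was −0.12 in light and −0.23 in the dark for PBS3, and −0.08 in light and −0.13 in the dark for ICS1. Of the 11, 3 had an unadjusted p under 0.05 in light and 1 in the dark in limma.

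The sugar starvation list was read because CHE fell alongside it: 8 of 12 genes fell in light, with a median change of −1.86. Over all genes 2.83% were called lower in light. Since the list was read for its fall, this count is given as a description. ASN1, asparagine synthetase, changed by −4.46 and DIN1 by −3.68, both far beyond CHE. None of the 12 followed CHE over lines in either condition, with or without the form; without it 4 had an unadjusted p under 0.05 in light and 3 in the dark, and with it 3 in light and 5 in the dark. With the form, 4 of the 12 had a negative r at adjusted p alone in the dark and 1 did in light, and the median r was −0.21 in the dark and −0.18 in light. At the shares called over all genes, 6.02% in light and 5.54% in the dark without the form, a list of 12 is too short for a count of 0 to be read.

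Markers of seedling parts were read beside these results. The 9 seed storage genes summed to 292.4 to 8455 TPM (median 1528) in Tnz-1-like and 0.88 to 6712 TPM (median 255.1) in Ws-2-like lines in light. In the dark they summed to 226.5 to 16570 TPM (median 1343) in Tnz-1-like and 2.21 to 6536 TPM (median 180.5) in Ws-2-like lines. Of these 9, 1 in light and 4 in the dark followed CHE, with negative r, beside 6.02% and 5.54% of all genes. At adjusted p alone 7 had a negative r in each condition, beside 3462 in light and 3522 in the dark of all 18110 genes. With the form none followed CHE, beside 1.9% and 2.12% of all genes, and none passed the adjusted p. With it 2 in light and 1 in the dark had an unadjusted p under 0.05 in limma. Of the 9, 6 were at 0 in some library. The 5 green leaf genes summed to 24750 to 41940 TPM in light and 20340 to 36510 TPM in the dark, so green tissue was present in every library. LHCB1.2, of the light-harvesting complex, followed CHE in the dark with the form (0.60), and had 0.09 with CHE from the other library; it is a close copy of LHCB1.1, and reads may have been split between them. The 7 root genes summed to 251.5 to 2493 TPM in light and 214.6 to 3126 TPM in the dark. None of the 5 of them tested followed CHE without the form, where 1 in light and 2 in the dark had an unadjusted p under 0.05, or with it, where 2 in light and 3 in the dark did. The higher seed storage RNA moved with the Tnz-1-like form and low CHE, and its part in the result was not tested.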

How the data were processed

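Per the submitters' processing notes, cutadapt 3.4, Salmon 1.6.0, GATK and the build TAIR10 were used; their roles and order are not given in the sources used here. Per the labels' protocols, RNA was extracted with a Qiagen RNeasy kit and made into directional poly(A) libraries. The authors deposited 1 table of TPM for 28775 genes in 134 libraries, each column summing to 999999 to 1000001. TPM keeps no read total, so depth is unknown and no counting interval is given. Libraries listed 7999 to 10459 genes at 0.

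Tests used log2(TPM + 1), a pseudocount of 1, for the 18111 genes that averaged 1 TPM or more across 130 line libraries. Per-gene models came from limma 3.58.1 under R 4.3.3, using eBayes with its trend option, and p-values were adjusted by Benjamini-Hochberg. Tags and response size used permutation tests in Python 3.11.15 with NumPy 2.4.6, SciPy 1.17.1 and pandas 2.3.3. A tag also needed a gap of 1.5 log2 units between line groups and 10 lines on each side. Procedures were tested on simulated data. By label, a light and a dark library with the same number are from 1 inbred line, which pairs them. The main fits of light changes and of slope differences did not use this pairing. The fit with the line as a block appears below where it moves a count. Names and coordinates are from TAIR10.1, which held 28009 of the identifiers.

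CHE, the gene lists and the tests were chosen with earlier results of these data known. Genes were named as the 4 highest and 4 lowest r among called genes averaging 5 TPM or more in light, in the dark and in both, the best tag per chromosome, list genes and neighbours of CHE. The same rule was applied to the fits with the form, added after the values were seen. Of the genes whose slope differed, AT5G11420 and GSTF8 were chosen after their values were seen. Alternatives changed the pseudocount, filter, scaling, ranks, line ranges, near-identical lines, the library of CHE and the form near CHE. Parents were left out of all tests.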

Additional observations from a re-analysis of the deposited data

Results flagged for a closer look

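The slope of a gene on CHE differed between extended light and dark for 13 of 18110 genes by the interaction test in limma at an adjusted p under 0.05, 4 with a higher and 9 with a lower slope in light. They were CTF2B, GSTF8, BPM2, PEX11E, SGT1A, PAL3, AT5G11420, AT5G11470, ENODL17, AT5G17780, AT5G19940, AT5G64400 and BT4. Over all lines AT5G11420 had r = 0.45 with CHE in light and −0.49 in the dark. SGT1A had −0.32 in light and 0.41 in the dark over all lines. With the form at AT5G09310 as a covariate, the partial r of AT5G11420 was 0.54 in light and −0.22 in the dark. That of SGT1A was −0.46 in light and 0.04 in the dark, and neither dark value passed the adjusted p. With the form at AT5G09310 and its interaction in the fit, AT5G11420, GSTF8 and BT4 kept an adjusted p under 0.05, at 0.00387, 0.00137 and 0.00231.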

How the results depend on the processing

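The 17 named light changes kept their direction and call with another pseudocount (0.1) and with median-of-ratios scaling. They also did so with no filter and with the line as a replicate block, which called 994 genes in light. Dropping the filter or adding the block leaves each log2 change as it is. Neither could alter a direction or whether the size threshold was met. At a log2 change of 0.5 the count of genes changed in light was 3375. For genes that follow CHE, counts in light and dark were 200 and 194 with the first principal component, 344 and 384 with the form at AT5G09310, 149 and 218 with form and line range, 36 and 296 with form and CHE from the other library, 514 and 481 with form without near-identical lines, 322 and 361 with form without lines 63 and 68, 398 and 448 with form and median-of-ratios scaling, 302 and 536 in Ws-2-like lines alone, and 4898 and 4671 at an absolute r of 0.3. Ranks gave 644 in the dark. Of 34 named r values, counting loci with identical values once, 32 no longer passed with the form, 9 with ranks, 9 with the first principal component, 2 with median-of-ratios scaling, 2 with pseudocount 0.1, 1 with CHE from the other library and 1 with line range; all 34 passed with no filter and without near-identical lines. For the slope difference, pseudocount 0.1 gave 7 genes, the replicate block 273 and the form 58. For the CHE level, tags with a gap of 2.5 gave 33 calls of 86, and the scan within forms 39. For the CHE change, called tags numbered 21 with ranks, 19 within line ranges, 2 without near-identical lines and 9 with a gap of 2.5, where the difference at AT5G09310 was 17.9 in rank units, 0.38, 0.41 and 0.35. The r between the CHE change and response size turned to −0.0503 with median-of-ratios scaling and −0.178 within line ranges. The cause was not tested. Alternatives with the form, with Ws-2-like lines alone or without lines 63 and 68 were chosen after seeing the data. Unknown depth limits low genes such as CCA1.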
